A study of Mus musculus with 9 samples.

Results

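The L1 family of cell adhesion molecules was followed across the dorsal, intermediate and ventral spinal cord of young mice. Its 4 genes, L1cam, Chl1, Nrcam and Nfasc, were chosen by symbol, and every probe set that the platform annotation gives to one of these symbols alone was taken. They held 13 of the 45037 probe sets in the table, and 12 of the 13 passed the filter on low values that 28726 probe sets passed. L1cam had 2 probe sets, Chl1 4, Nrcam 4 and Nfasc 3, and the one that failed the filter was Chl1 1447036_at, which never left the lowest value in the table on any of the 9 arrays.

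Members of the family are transmembrane proteins of the immunoglobulin superfamily that sit on axons and bind one another, other adhesion molecules and the matrix with their outer parts, while the short inner tail holds ankyrin, the adaptor to the spectrin skeleton. L1cam and its close homologue Chl1 are known for axon growth, bundling and guidance. Nrcam and Nfasc are known for assembling the axon initial segment and the nodes of Ranvier, and Nfasc is also made in a glial form that holds the myelin loops to the axon beside the node. Spinal cord in the first postnatal week is still growing fibre tracts and is beginning to myelinate them, so axonal and glial uses of the family overlap in time.

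RNA came from GAD65-GFP mice at postnatal day 6, a genotype shared by all 3 regions, in which green fluorescent protein is driven by the promoter of GAD65, an enzyme that makes GABA, in a subset of inhibitory neurons. Each of 3 animals gave 1 dorsal, 1 intermediate and 1 ventral piece, so the 9 arrays form 3 groups of 3. The labels mention no sorting, and the values are those of tissue pieces with all their cells. The series as a whole addresses genes linked to dystonia in spinal inhibitory circuits, and there was no treated or mutant group.

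Values lay between 2.146 and 16.27 and were read as log2 units, although no label states the scale; every fold below rests on that reading. Array medians ran from 3.66 to 3.75, and on each array 36.0% to 36.3% of the probe sets were within 0.01 of the lowest value, called the floor here. The region labels were checked against markers: all 8 dorsal horn markers measured, such as the neuropeptide genes Tac1 and Penk, were higher in dorsal than in ventral pieces, and Prph, a motor neuron intermediate filament, was at 9.53, 9.56 and 9.13 in ventral pieces and at the floor in every dorsal piece. The cholinergic genes that define motor neurons, Chat, Slc5a7 and Slc18a3, were at the floor on all 9 arrays. With 3 arrays a region, the number of arrays limits the precision of everything below. A probe set was called when its limma p, adjusted by Benjamini-Hochberg over all 28726 probe sets, was under 0.05, and a gene was read from its brightest probe set. The 3 comparisons share arrays, so that they are not independent of each other.

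L1cam and Chl1 were highest in dorsal pieces, next in intermediate and lowest in ventral ones, Nfasc ran the opposite way, and the brightest Nrcam probe set was nearly level. Between dorsal and ventral pieces 3 of the 4 genes were called, L1cam and Chl1 higher dorsally and Nfasc lower, where 48.4% of all probe sets were called in either direction. Between intermediate and ventral pieces the same 3 genes were called in the same directions, against 41.7% of all probe sets. Between intermediate and dorsal pieces 2 genes were called, Nrcam higher and Chl1 lower, against 26.3% of all probe sets, but without animal 1 or without animal 3 the count was 0. Counted over the 12 probe sets kept, 7 were called in each comparison with ventral pieces and 3 between intermediate and dorsal pieces. Over all 3 regions at once the limma F test called 8 of the 12, against 52.3% of all probe sets. So large a share of the whole table was called that the count of calls alone is not read as particular to the family. Groups of values without overlap were common too. They were found for 56.8% of all probe sets between dorsal and ventral, 52.8% between intermediate and ventral and 39.4% between intermediate and dorsal pieces. These shares stand beside every mention of separate values below. In tissue of mixed cells, fewer cells of a type and less RNA per cell cannot be told apart.

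**Figure D1:**
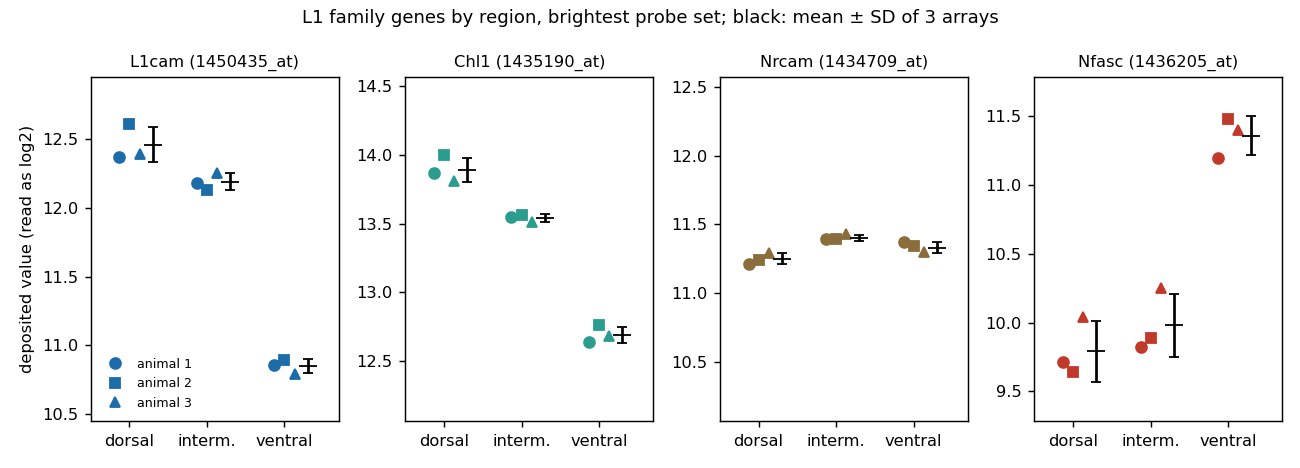
Deposited value (read as log2) of the brightest probe set of L1cam, Chl1, Nrcam and Nfasc in dorsal, intermediate and ventral pieces, 1 marker shape per animal, with the mean and SD of 3 arrays in black; the 4 vertical axes span the same number of log2 units but start at different values. L1cam and Chl1 step down towards the ventral cord, Nfasc steps up to 11.20 to 11.48, and Nrcam stays between 11.21 and 11.43.

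L1cam, the founding member of the family and the ligand of other L1 molecules on neighbouring axons, was read by 1450435_at. Its values in animals 1, 2 and 3 were 12.37, 12.61 and 12.39 in dorsal pieces. They were 12.18, 12.13 and 12.25 in intermediate pieces and 10.86, 10.89 and 10.79 in ventral pieces. Every ventral array lay more than 1 log2 unit below every other array, with a gap of 1.24 to the intermediate pieces. L1cam was 3.05-fold higher in dorsal than in ventral pieces (difference 1.61 ± 0.07, SE, 95% interval 1.42 to 1.80, limma adjusted p = 1.35e-04). It was 2.53-fold higher in intermediate than in ventral pieces (1.34 ± 0.07, SE, limma adjusted p = 3.87e-04), and both differences had the same direction in all 3 animals. Only 4.44% of all probe sets differed more between dorsal and ventral pieces, and 3.92% between intermediate and ventral pieces.

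Intermediate pieces were below dorsal pieces in all 3 animals for L1cam, and the 2 groups of values did not overlap, as was so for 39.4% of all probe sets. The difference of -0.27 ± 0.07 (SE) missed the threshold (limma adjusted p = 0.0555). It passed under 5 of 25 alternatives, with adjusted p between 0.0227 and 0.204 over the 25. The second L1cam probe set, 1421958_at, lay between 2.48 and 2.80 on all arrays, close to the floor, and was called in no comparison, so that L1cam rests on 1 probe set.

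Chl1, which guides axons and supports neuron migration and survival, gave a like gradient with 1435190_at. Its dorsal values were 13.87, 14.00 and 13.81, its intermediate values 13.55, 13.56 and 13.51, and its ventral values 12.64, 12.76 and 12.68. No 2 regions overlapped, as was so for 52.8% of all probe sets between intermediate and ventral and for 56.8% between dorsal and ventral pieces. Chl1 was 2.30-fold higher in dorsal than in ventral pieces (1.20 ± 0.04, SE, limma adjusted p = 5.95e-05) and 1.79-fold higher in intermediate than in ventral pieces (0.84 ± 0.04, SE, limma adjusted p = 2.71e-04). Intermediate pieces lay below dorsal ones 1.28-fold (-0.36 ± 0.04, SE, limma adjusted p = 0.00343), a call that was lost without animal 1 (adjusted p = 0.0514) and without animal 3 (adjusted p = 0.0540) while the difference stayed at -0.37 and -0.38.

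A second Chl1 probe set well above the floor did not show this gradient. Probe set 1417795_at lay at 9.04, 8.94 and 8.84 in dorsal, 9.06, 8.94 and 8.97 in intermediate and 8.91, 8.87 and 8.89 in ventral pieces, which puts all 9 arrays within 0.22 of one another. Its dorsal minus ventral difference was 0.05 ± 0.04 (SE, limma adjusted p = 0.350). Within arrays, that difference was smaller than the one of 1435190_at by 1.15 log2 units, with a 95% interval of the change from -1.21 to -1.09. The Chl1 gradient therefore rests on 1 of its 2 probe sets well above the floor, and which transcripts the 2 probe sets read was not determined. The third kept probe set, 1443713_at, stood at 2.26 or 2.27 on every array.

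Nfasc, neurofascin, was the only member of the 4 that was highest in ventral pieces on every one of its kept probe sets. Its brightest one, 1436205_at, lay at 9.71, 9.64 and 10.04 in dorsal pieces, 9.82, 9.89 and 10.25 in intermediate pieces and 11.20, 11.48 and 11.40 in ventral pieces. Dorsal and intermediate values overlapped, and all ventral values lay above both. Nfasc was 2.96-fold lower in dorsal than in ventral pieces (-1.57 ± 0.10, SE, limma adjusted p = 3.72e-04) and 2.60-fold lower in intermediate than in ventral pieces (-1.38 ± 0.10, SE, limma adjusted p = 8.03e-04). Between intermediate and dorsal pieces the difference was 0.19 with a 95% interval of -0.08 to 0.46 (limma adjusted p = 0.267). Animal 3 had the highest Nfasc value of the dorsal and of the intermediate pieces, but not of the ventral ones.

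The other Nfasc probe sets gave the same order of regions. For 1459357_at the dorsal values were 8.58, 8.58 and 8.83, the intermediate values 8.55, 8.68 and 8.83, and the ventral values 10.06, 9.96 and 9.99. Its differences were -1.33 (dorsal minus ventral, limma adjusted p = 2.57e-04) and -1.31 (intermediate minus ventral, limma adjusted p = 4.71e-04). For 1456068_at they were -1.17 (limma adjusted p = 7.63e-04) and -0.95 (limma adjusted p = 0.00194), and its values ran from 7.18 to 7.71 outside the ventral cord and from 8.51 to 8.64 within it. The fall of 1456068_at was smaller than that of the brightest probe set by 0.40 (95% interval 0.04 to 0.76) in dorsal and by 0.42 (0.06 to 0.79) in intermediate pieces. The array probe sets were not assigned to the neuronal or the glial form of neurofascin.

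Nrcam, which binds semaphorin receptors and clusters channels at nodes, showed no single regional pattern. The brightest probe set, 1434709_at, lay at 11.21, 11.24 and 11.29 in dorsal, 11.39, 11.39 and 11.43 in intermediate and 11.37, 11.34 and 11.30 in ventral pieces. All 9 arrays fell within 0.22 of one another. The regions did not overlap, but the gaps were small. They were 0.10 between intermediate and dorsal, 0.02 between intermediate and ventral and 0.01 between dorsal and ventral values. Of all probe sets 39.4%, 52.8% and 56.8% did not overlap in these 3 comparisons. Intermediate pieces exceeded dorsal ones 1.11-fold (0.15 ± 0.03, SE, limma adjusted p = 0.0240). That call was lost without each animal, at adjusted p = 0.111, 0.171 and 0.0672 for animals 1, 2 and 3. The dorsal minus ventral difference was -0.09 (95% interval -0.17 to -0.01, limma adjusted p = 0.0758) and the intermediate minus ventral one 0.07 (limma adjusted p = 0.153).

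Another pair of Nrcam probe sets put the intermediate cord clearly above the ventral cord. Values of 1430583_at were 10.87, 11.06 and 10.99 in dorsal, 11.37, 11.23 and 11.22 in intermediate and 10.61, 10.66 and 10.60 in ventral pieces. Its regions did not overlap, as was so for 39.4% of all probe sets between intermediate and dorsal, 52.8% between intermediate and ventral and 56.8% between dorsal and ventral pieces. This probe set was 1.57-fold higher in intermediate than in ventral pieces (0.65 ± 0.07, SE, limma adjusted p = 0.00181). It was also 1.28-fold higher in dorsal than in ventral pieces (limma adjusted p = 0.0110), which was lost without animal 2 (0.0849) and without animal 3 (0.125). The 1.23-fold excess of intermediate over dorsal pieces (limma adjusted p = 0.0339) was lost without animal 1 (0.0556), animal 2 (0.110) and animal 3 (0.193).

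Values of 1443281_at were 8.90, 8.73 and 8.73 in dorsal, 9.08, 9.12 and 8.74 in intermediate and 8.31, 8.33 and 8.18 in ventral pieces. Its intermediate and dorsal values overlapped, and both lay above every ventral value. It was 1.63-fold higher in intermediate than in ventral pieces (limma adjusted p = 0.00221) and 1.43-fold higher in dorsal than in ventral pieces (limma adjusted p = 0.00505). Without animal 1 these became 0.0532 and 0.0810. The fourth probe set, 1458833_at, lay between 6.49 and 6.88 and was called nowhere. Relative to the brightest Nrcam probe set, 1430583_at and 1443281_at had dorsal minus ventral differences that were larger by 0.44 (95% interval 0.27 to 0.61) and 0.60 (0.36 to 0.84). The sign of Nrcam between dorsal and ventral cord thus depended on the probe set: -0.09 with the brightest, 0.51 with the most variable one and 0.23 with the mean of the 4.

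**Figure D2:**
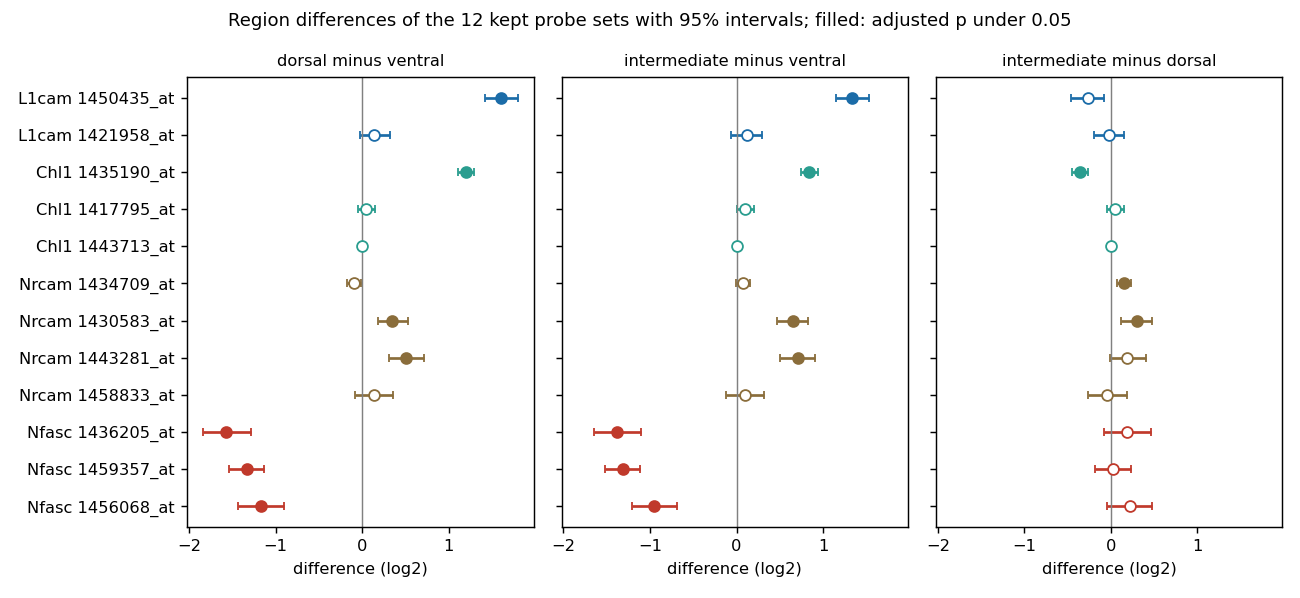
Region differences in log2 units (horizontal axis) of the 12 kept probe sets of the 4 genes, with 95% intervals from limma; filled points have an adjusted p under 0.05. The 3 Nfasc probe sets lie together on the left of 0 in both comparisons with ventral pieces, whereas Chl1 and Nrcam probe sets do not share one position.

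Compared within arrays by their brightest probe sets, the members differed from each other in how they changed along the cord. In each comparison with ventral pieces the 95% interval excluded 0 for all 6 pairs of members. The share of other gene pairs for which this holds was not computed. The choice of probe set matters here: between dorsal and ventral pieces Chl1 1417795_at differed from the brightest Chl1 probe set by -1.15 (95% interval -1.21 to -1.09). L1cam and Nfasc lay farthest apart, by 3.18 log2 units between dorsal and ventral pieces (95% interval 2.84 to 3.51), and L1cam and Chl1 lay closest, by 0.41 (0.25 to 0.56). Between intermediate and dorsal pieces 4 of the 6 intervals excluded 0. The differences of L1cam and Chl1 there were 0.09 apart (-0.07 to 0.24), and those of Nrcam and Nfasc -0.04 apart (-0.29 to 0.21). Across the 9 arrays, which share animals and regions, the Pearson correlation was 0.987 between L1cam and Chl1, -0.969 between L1cam and Nfasc and -0.961 between Chl1 and Nfasc. It was -0.196, -0.343 and 0.202 between Nrcam and L1cam, Chl1 and Nfasc.

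**Figure D3:**
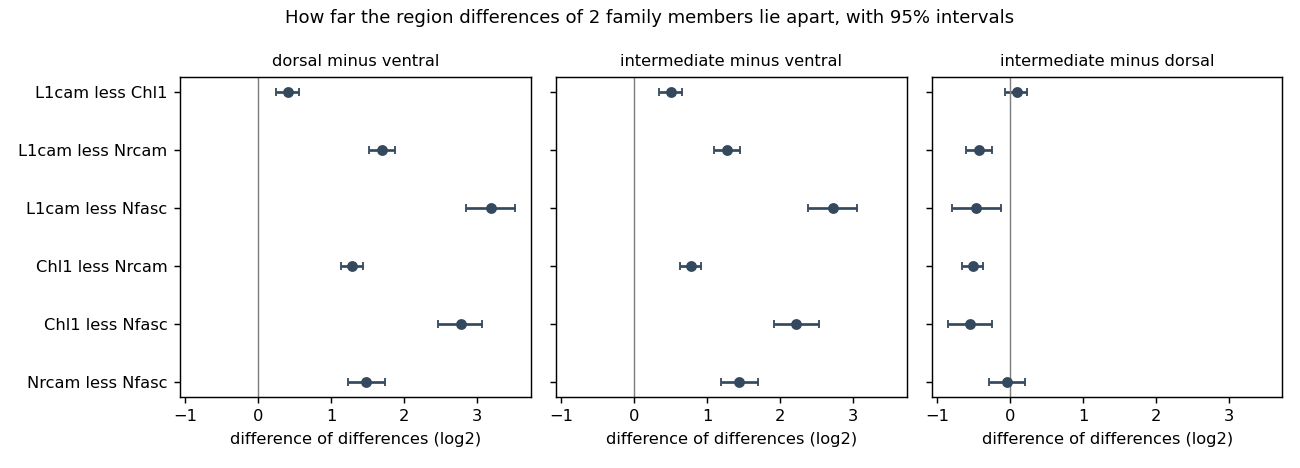
Difference between the region differences of 2 family members (horizontal axis, log2 units; first named less second), with 95% intervals, for 6 pairs and 3 comparisons, brightest probe sets. Against ventral pieces no interval reaches 0; between intermediate and dorsal pieces 2 of the 6 span it.

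The sequences upstream of the genes that ran together, L1cam and Chl1, and of Nfasc, which ran the other way, are given to show how far the windows before their annotated starts look alike. They are the 250 bases before the start in RefSeq annotation on GRCm38.p6, printed on the gene's strand. L1cam lies on the minus strand at chrX:73880791-73881040 and Chl1 on the plus strand at chr6:103510626-103510875. Nfasc has starts on the minus strand at chr1:132707327-132707576 and chr1:132642859-132643108. Capitals mark matches, on either strand, to the GC box with the letters GGGCGG or to the shorter CCAAT box; the letters of the other motifs searched are given after the sequences.
L1cam: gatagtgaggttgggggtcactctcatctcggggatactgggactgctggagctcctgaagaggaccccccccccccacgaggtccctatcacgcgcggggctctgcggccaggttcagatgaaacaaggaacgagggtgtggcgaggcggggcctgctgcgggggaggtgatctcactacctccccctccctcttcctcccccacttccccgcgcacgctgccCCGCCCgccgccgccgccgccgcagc
Chl1: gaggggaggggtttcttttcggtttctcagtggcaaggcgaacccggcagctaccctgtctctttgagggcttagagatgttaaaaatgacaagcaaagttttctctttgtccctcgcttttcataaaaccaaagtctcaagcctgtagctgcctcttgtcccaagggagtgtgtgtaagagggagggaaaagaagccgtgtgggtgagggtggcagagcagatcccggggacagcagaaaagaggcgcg
Nfasc upstream start: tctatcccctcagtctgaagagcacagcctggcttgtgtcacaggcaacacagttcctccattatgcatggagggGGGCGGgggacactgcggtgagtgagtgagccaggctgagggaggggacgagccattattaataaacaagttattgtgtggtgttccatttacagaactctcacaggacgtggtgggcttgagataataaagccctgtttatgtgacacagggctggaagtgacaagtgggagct
Nfasc downstream start: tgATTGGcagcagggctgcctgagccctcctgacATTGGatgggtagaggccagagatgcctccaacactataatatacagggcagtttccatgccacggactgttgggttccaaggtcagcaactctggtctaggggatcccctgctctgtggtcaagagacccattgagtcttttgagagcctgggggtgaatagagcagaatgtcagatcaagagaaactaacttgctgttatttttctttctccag

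The 4 windows shared little of this kind. L1cam held 1 GC box and 20 CG pairs, more than 82.1% of 32851 mouse promoter windows of the same length hold, which have a median of 6. Chl1 held 8 CG pairs and 0 matches to any of the 5 motifs. The upstream Nfasc start held 1 GC box and 4 CG pairs, and the downstream start 2 CCAAT boxes and 1 CG pair. Whether each annotated start is a promoter used in these pieces was not tested. A GC box occurs in 32.7% of all windows and a CCAAT box in 33.8%. The TATA box was searched as TATAAA, which 12.4% of all windows hold. The homeodomain core was searched as TAATTA, which 4.84% of all windows hold. The E-box was searched as CAGCTG, which is in 13% of them, and none of these 3 motifs was found in any window of the 4 genes. No match overlapped another. A second L1cam start, whose window overlaps the first at chrX:73880835-73881084, held 1 GC box and 1 CCAAT box. The Nrcam window, at chr12:44328635-44328884 on the plus strand, held 1 GC box and 25 CG pairs.

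The inner tail of the family is held by ankyrins, which in turn bind spectrin. Of the 7 ankyrin and spectrin genes with a probe set of their own, all 7 were higher in intermediate than in ventral pieces, with a median difference of 0.47 against 0 over all probe sets. Of all probe sets 41.7% were called in either direction there, 48.4% between dorsal and ventral and 26.3% between intermediate and dorsal pieces. These shares stand beside each list count below. In dorsal against ventral pieces 6 of the 7 were higher (median 0.33), which became 5 without animal 1 and 4 without animal 2 and without animal 3. Another 2 calls, 1 higher and 1 lower, were made in intermediate against dorsal pieces, of which neither was called without animal 3. Ank3, ankyrin-G of initial segments and nodes, was at 13.50, 13.65 and 13.60 in dorsal, 13.71, 13.69 and 13.69 in intermediate and 13.42, 13.48 and 13.45 in ventral pieces. Its intermediate values exceeded ventral ones by 0.25 (limma adjusted p = 0.00469), which was lost without animal 3 (adjusted p = 0.0773). The intermediate minus dorsal difference of 0.11 was not called (limma adjusted p = 0.0772), and another Ank3 probe set, 1447259_at, was called the other way there, at -0.44.

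In intermediate against ventral pieces Ank2, ankyrin-B of axon shafts, was higher by 0.34 (limma adjusted p = 0.00407), also lost without animal 3 (0.0754). Ank1 was higher in the same comparison by 0.78 (limma adjusted p = 0.00245), lost without animal 1 (0.0563). Sptbn4, the beta-spectrin of initial segments and nodes, was 2.17-fold higher in dorsal than in ventral pieces (limma adjusted p = 0.00232). Sptb was 3.16-fold higher there (limma adjusted p = 0.00119), and both held without each animal. Sptan1, the alpha-spectrin of neurons, was higher by 0.47 in intermediate than in ventral pieces (limma adjusted p = 0.00143). The count of 7 for intermediate against ventral pieces was 3 without animal 1 and 4 without animal 3. For Sptbn1 other probe sets ran the other way, down to -1.79 in intermediate against ventral pieces.

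Extracellular partners were split. Of 14 kept genes, 5 were higher and 7 lower in dorsal than in ventral pieces, and relative to ventral pieces the intermediate cord had 7 higher and 5 lower (4 and 2 without animal 1 and without animal 3). In intermediate against dorsal pieces 9 were higher and 3 lower (median 0.39), which was 4 higher and 1 lower without animal 1 and without animal 3 and 5 higher and 2 lower without animal 2. Ncam1, a neural adhesion molecule that binds L1cam, was at 13.23, 13.43 and 13.32 in dorsal and 12.03, 12.07 and 12.05 in ventral pieces, 2.43-fold higher dorsally (limma adjusted p = 6.86e-05). Another Ncam1 probe set, 1450437_a_at, ran the other way, at -1.05. Cntnap2, the partner of contactins beside nodes, was 2.31-fold higher in intermediate than in ventral pieces (limma adjusted p = 4.64e-04). Itgav and Itgb1, integrin chains, were lower by -1.08 and -0.92 in dorsal than in ventral pieces (limma adjusted p = 4.63e-05 and 0.00173). Cd24a, a ligand of L1cam, was 2.17-fold higher dorsally than ventrally (limma adjusted p = 0.00119), and Ptprz1, a receptor phosphatase of glia, differed by -0.93 (limma adjusted p = 2.67e-04). Cntn2, an axonal contactin, differed by 0.67 between intermediate and ventral pieces (limma adjusted p = 0.0340), lost when any one animal was left out (adjusted p up to 0.146). Cntnap1, the paranodal partner of contactin, was at the floor in all pieces.

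The neuropilins, which carry class 3 semaphorin signals together with L1 family molecules, ran in opposite directions. Nrp1 was at 12.41, 12.36 and 12.32 in dorsal, 11.17, 11.31 and 10.98 in intermediate and 11.55, 11.52 and 11.52 in ventral pieces. It was 2.31-fold lower in intermediate than in dorsal pieces (limma adjusted p = 9.06e-04). Nrp2 was at 8.67, 8.08 and 8.22 in dorsal, 9.53, 9.34 and 9.34 in intermediate and 9.68, 9.55 and 9.50 in ventral pieces, and was 2.39-fold lower dorsally than ventrally (limma adjusted p = 5.27e-04).

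Among 11 class 3 semaphorins and plexins, 5 were higher and 3 lower in dorsal than in ventral pieces. Between intermediate and ventral pieces 4 were higher and 2 lower (2 and 2 without animal 1, 5 and 1 without animal 2, 3 and 1 without animal 3), and between intermediate and dorsal pieces 2 were higher and 2 lower (1 and 0 without animal 1, 2 and 1 without animal 2, 2 and 0 without animal 3). Sema3a, a repellent ligand, was at 6.02, 6.35 and 6.71 in dorsal pieces and between 8.63 and 8.96 in all others. It was 5.90-fold lower in dorsal than in ventral pieces (limma adjusted p = 2.01e-04). Plxna2, a signalling receptor chain, was 5.77-fold higher dorsally (limma adjusted p = 2.35e-04), and Sema3d was 3.25-fold lower (limma adjusted p = 1.35e-04). Plxna3 differed by 1.06 in this comparison (limma adjusted p = 0.00134), and Plxna1 by 0.79 between intermediate and ventral pieces (limma adjusted p = 8.70e-04). Plxnd1 differed by -1.08 there (limma adjusted p = 0.0144) and Sema3b by -1.88 between intermediate and dorsal pieces (limma adjusted p = 0.0494), and neither call held without animal 2 or without animal 3 (adjusted p up to 0.117 and 0.218).

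Cytoplasmic partners showed no common direction: of 12 genes, 4 were higher and 3 lower in dorsal than in ventral pieces, 5 higher and 4 lower in intermediate than in ventral pieces, and 0 higher and 4 lower in intermediate pieces relative to dorsal ones. Dcx, doublecortin of young neurons, fell in order from 11.39, 11.53 and 11.20 in dorsal over 9.98, 9.98 and 9.72 in intermediate to 9.12, 9.23 and 9.10 in ventral pieces, a 4.67-fold dorsal excess over ventral pieces (limma adjusted p = 4.43e-05). Dlg3, a synaptic scaffold, was 3.24-fold higher dorsally (limma adjusted p = 9.06e-05). Msn, moesin, which links membranes to actin, was 2.22-fold lower dorsally (limma adjusted p = 0.00238), which was lost without animal 3 (0.0585), and Rdx, radixin, differed by -0.95 (limma adjusted p = 0.00695), also lost without animal 3 (0.0902). The intermediate minus dorsal differences of Dlg1 and Numb were -0.22 and -0.24 (limma adjusted p = 0.0131 and 0.0465), and neither call held without animal 3 (adjusted p up to 0.271 over the animals left out). For intermediate against ventral pieces the counts were 2 higher and 3 lower without animal 1 and 2 higher and 1 lower without animal 3. The dorsal minus ventral counts were 2 and 4 without animal 1 and 2 and 1 without animal 3. Those of intermediate minus dorsal were 0 and 2 without animal 1, 3 and 3 without animal 2 and 0 and 1 without animal 3.

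Of 6 proteases and protease subunits that shed or cut the family, 1 was higher and 3 lower in dorsal than in ventral pieces (0 and 2 without animal 3), and 4 were lower and 0 higher in intermediate than in ventral pieces (median -0.54). Between intermediate and dorsal pieces 2 were lower and 0 higher, and both of these calls were lost when an animal was left out. Bace1, beta-secretase, was at 12.69, 12.66 and 12.69 in ventral pieces and between 11.80 and 12.04 elsewhere, and was 1.73-fold lower dorsally than ventrally (limma adjusted p = 1.70e-04). Aph1a, a gamma-secretase subunit, was 1.62-fold lower there (limma adjusted p = 0.00197). Ncstn, another subunit, was the gene higher there (0.76, limma adjusted p = 0.00433), lost without animal 3 (0.0776), and Adam17 differed by -0.86 between intermediate and ventral pieces (limma adjusted p = 0.00309), also lost without animal 3 (0.0575). Adam10, a sheddase of L1cam, was lower in intermediate than in ventral pieces by a difference of -0.48 (limma adjusted p = 0.0153), lost without animal 2 and without animal 3 (adjusted p up to 0.159). The 4 calls against ventral pieces were 2 without animal 2 and 1 without animal 3.

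Channels of the initial segment and node, where Nfasc and Nrcam act, moved in both directions. Relative to ventral pieces, the intermediate cord had 8 of 11 kept genes higher and 1 lower (median 0.70; 8 and 0 without animal 1, 7 and 0 without animal 3). The dorsal cord had 6 higher and 4 lower than the ventral cord (median 0.62; 6 and 2 without animal 2 and without animal 3). Relative to dorsal pieces 5 were higher and 2 lower in the intermediate cord (4 and 1 without animal 1, 3 and 2 without animal 2, 3 and 1 without animal 3). Scn2a, the sodium channel of young and unmyelinated axons, was at 12.97, 13.15 and 13.04 in dorsal, 13.08, 13.01 and 13.02 in intermediate and 11.60, 11.58 and 11.48 in ventral pieces. It was 2.83-fold higher dorsally than ventrally (limma adjusted p = 8.93e-05). Scn8a, the channel of mature nodes, was highest in intermediate pieces at 11.94, 11.80 and 11.94 and lowest in dorsal ones at 10.95, 11.16 and 11.14. Its dorsal minus ventral difference was -0.43 (limma adjusted p = 0.00635), lost without animal 3 (0.0888). Fgf13, which binds sodium channels, was 4.26-fold higher dorsally than ventrally (limma adjusted p = 3.68e-05), and Scn4b, a channel subunit, 7.56-fold lower (limma adjusted p = 9.99e-05). Scn3b and Kcnq3, another sodium channel subunit and a potassium channel, differed by 1.66 and 1.30 in the same comparison (limma adjusted p = 1.56e-04 and 1.06e-04), and Scn1a by 0.70 between intermediate and ventral pieces (limma adjusted p = 0.00211).

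The matrix of nodes and perineuronal nets was high ventrally, as Nfasc was. Of 9 genes, 8 were lower and 0 higher in dorsal than in ventral pieces (median -1.20), and 6 were lower and 0 higher in intermediate than in ventral pieces (median -0.46). Between intermediate and dorsal pieces 5 were higher and 1 lower, which became 2 and 1 without animal 1, 3 and 1 without animal 2 and 1 and 1 without animal 3. Hapln2, the link protein of nodes on myelinated axons, was at 2.72, 2.49 and 3.48 in dorsal, 3.12, 3.13 and 3.47 in intermediate and 6.51, 7.24 and 7.93 in ventral pieces. All ventral values lay above all others (dorsal minus ventral, limma adjusted p = 2.33e-04), and no fold is given because the dorsal and intermediate values lay close to the floor. Hapln1, Hapln4 and Tnr were 5.58-fold, 3.52-fold and 2.41-fold lower dorsally than ventrally, and all 8 dorsal calls of the list held without each animal. Vcan differed by -1.20 there (limma adjusted p = 1.74e-04), and Tnc by -1.55 between intermediate and ventral pieces (limma adjusted p = 1.70e-04).

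**Figure D4:**
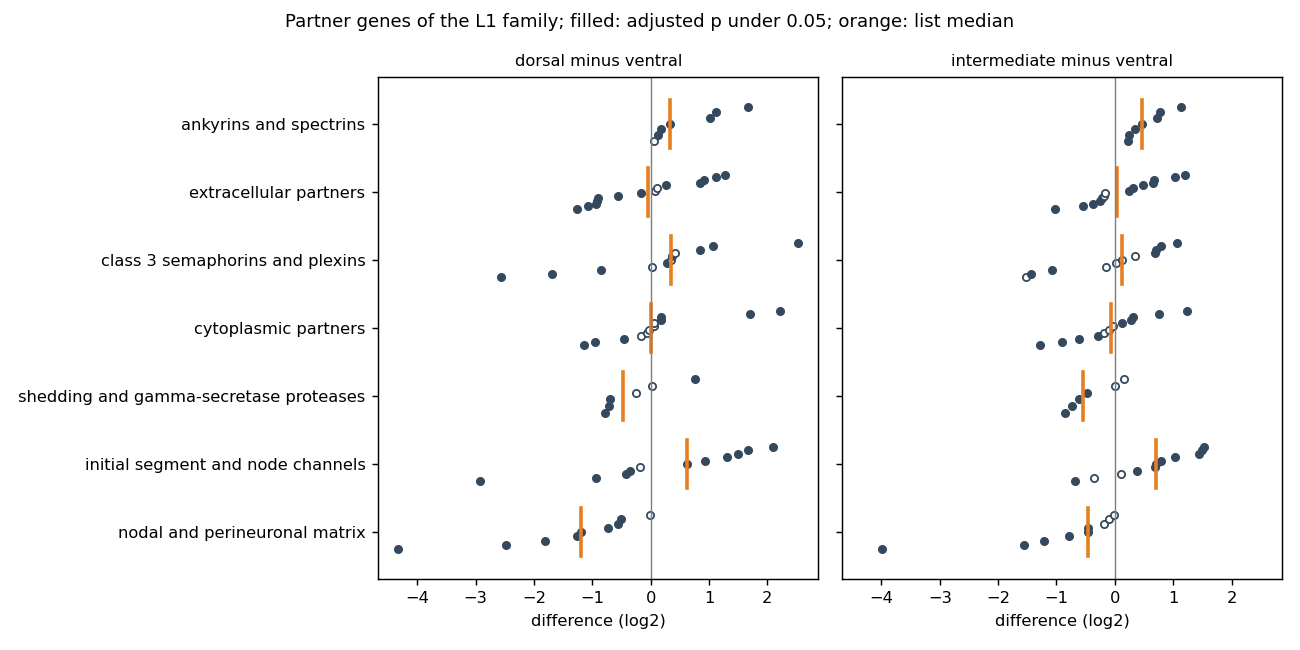
Difference in log2 units (horizontal axis) of each partner gene, 1 point per gene, by list, for dorsal minus ventral and intermediate minus ventral pieces; filled points have an adjusted p under 0.05 and the orange bar is the list median. Ankyrins and spectrins lie to the right of 0, and nodal and perineuronal matrix genes to the left, with Hapln2 at -4.33 and -3.99.

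Most markers of myelinating oligodendrocytes moved with Nfasc. Of 10 measured markers, 9 were lower in dorsal than in ventral pieces (median -1.81). In intermediate against ventral pieces 9 were lower (median -1.58), while 0 were called between intermediate and dorsal pieces. Mbp was the marker not called by its brightest probe set. Another Mbp probe set, 1425264_s_at, was called the other way, at 0.73 in dorsal and 0.53 in intermediate against ventral pieces. The 10 markers were also summed on a linear scale (2 raised to each value), in units of 1000. The sum was 110 to 124 in dorsal, 110 to 133 in intermediate and 202 to 213 in ventral pieces. None of the 10 was at the floor throughout any region. Mog, a late myelin protein, was at 10.09, 9.56 and 10.31 in dorsal, 9.84, 10.19 and 10.72 in intermediate and 13.18, 13.22 and 13.33 in ventral pieces. Animal 3 was thus highest in each region for Mog. All 8 oligodendrocyte precursor markers and all 9 astrocyte markers were also lower in dorsal and in intermediate than in ventral pieces, although without animal 1 or animal 3 the second astrocyte count was 5. The part of these cells in the Nfasc result was not tested.

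Neuronal markers moved with L1cam and Chl1 in part. Of 12 pan-neuronal markers, 8 were higher and 3 lower in dorsal than in ventral pieces (5 and 3 without animal 3). In the intermediate cord 9 were higher and 2 lower than ventrally (8 and 2 without animal 1, 9 and 1 without animal 2, 7 and 2 without animal 3). The summed linear level of the 12 markers, in units of 1000, was 95.2 to 106 in dorsal, 121 to 129 in intermediate and 106 to 111 in ventral pieces. The sum was thus highest in intermediate pieces, whereas L1cam and Chl1 were highest in dorsal ones. Between intermediate and dorsal pieces 6 of the 12 were higher in intermediate pieces, 2 were lower and 4 were not called. These counts of higher and lower were 5 and 1 without animal 1, 4 and 2 without animal 2 and 3 and 2 without animal 3. Most pan-neuronal markers thus did not fall from dorsal to intermediate pieces as L1cam and Chl1 did. Single markers did share the order of L1cam and Chl1: Rbfox3, the neuronal nuclear antigen, was at 12.99, 13.19 and 12.98 in dorsal, 12.44, 12.46 and 12.43 in intermediate and 11.51, 11.53 and 11.41 in ventral pieces. Syt1, a synaptic vesicle calcium sensor, was at 12.58, 12.81 and 12.57, at 12 in all 3 intermediate pieces, and at 9.66, 9.79 and 9.78. The summed linear level of the 8 dorsal horn markers had this order too, in units of 1000 at 15.6 to 18.5, 6.46 to 6.81 and 1.67 to 1.69. All 8 were lower in intermediate than dorsally (5 without animal 3). Only 5 of the 8 were called higher in intermediate than in ventral pieces (4 without animal 1 and without animal 2). Tlx3 was at the floor in all intermediate and all ventral pieces. The neurofilament genes Nefl, Nefm and Nefh were the 3 lower ones in dorsal pieces, at -1.16, -1.70 and -3.30. All 4 inhibitory neuron markers measured were higher in intermediate than in ventral pieces, and 3 of them were higher in dorsal than in ventral pieces. The fourth, Slc6a5, the glycine transporter of inhibitory endings, was lower there (-0.56, limma adjusted p = 0.00417), which was lost without animal 1 and without animal 3 (adjusted p up to 0.0716). The part of neuron number or type in the L1cam and Chl1 results was not tested.

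Tissue around the cord varied between pieces as well. In the same units of 1000, the 6 Schwann and root myelin markers measured summed to 4.57 to 19.2 in dorsal, 0.38 to 0.725 in intermediate and 6.71 to 9.87 in ventral pieces. The 8 meningeal and fibroblast markers summed to 12.3 to 26.9, 2.69 to 3.54 and 16.2 to 21.9. All 8 meningeal markers were lower in intermediate than in both other regions (against dorsal pieces 2 without animal 1 and 0 without animal 3, against ventral pieces 5 without animal 3). The part of this tissue in the L1 family results was not tested. All 9 microglia markers were lower in intermediate than in ventral and than in dorsal pieces, but 0 of them against dorsal pieces without animal 1 or without animal 3 and 4 without animal 2. Against ventral pieces 5 were lower without animal 1 and 4 without animal 3. Of 8 endothelial and mural markers 7 were lower in intermediate and in dorsal than in ventral pieces, and 4 in each without animal 3 (in intermediate pieces also without animal 1). Of the 4 sensory ganglion markers measured, Scn10a, Trpv1 and Avil were at the floor on all arrays. The fourth, Pou4f1, a transcription factor that some dorsal horn neurons also use, was at 9.98, 10.18 and 10.08 in dorsal, 9.34, 9.23 and 8.84 in intermediate and 5.19, 6.17 and 5.41 in ventral pieces, the same order of regions as L1cam and Chl1. It was called in all 3 comparisons, in intermediate minus dorsal (-0.94, limma adjusted p = 0.0431) a call lost when any one animal was left out (adjusted p up to 0.301), and its part in the L1cam and Chl1 results was not tested. Ependymal markers summed to 0.0652 to 0.0863 in dorsal, 0.368 to 0.528 in intermediate and 0.298 to 0.330 in ventral pieces.

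**Figure D5:**
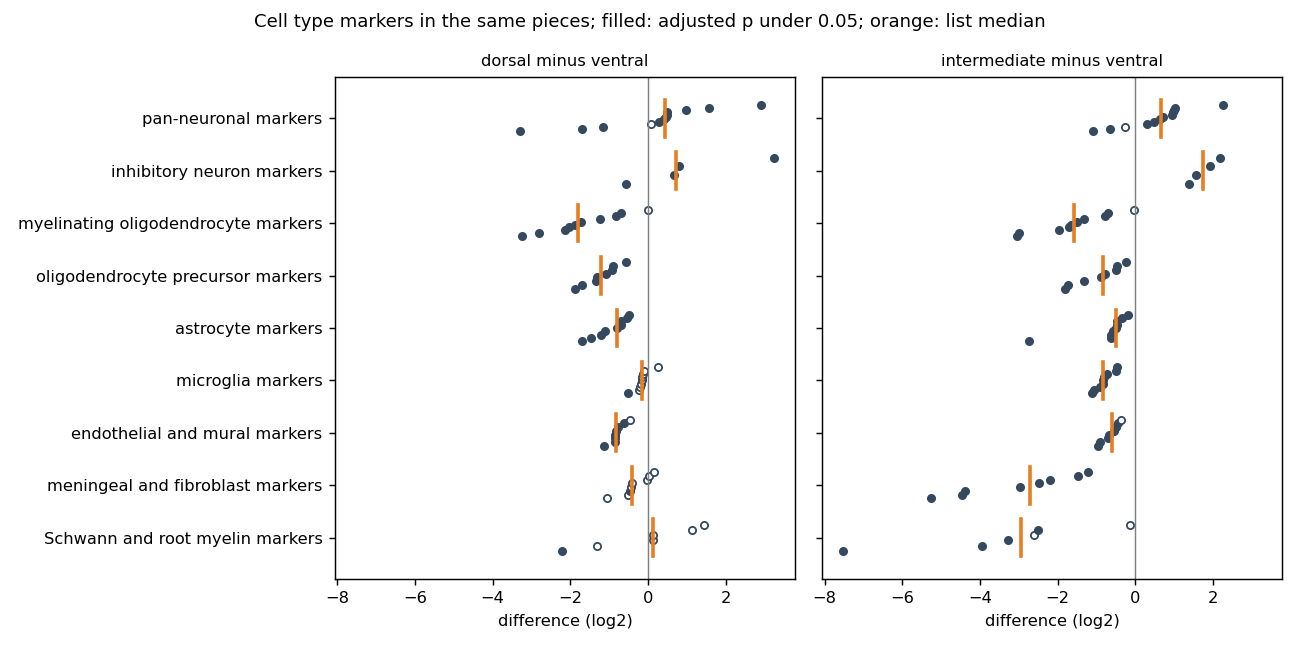
Difference in log2 units (horizontal axis) of cell type markers, 1 point per gene, for dorsal minus ventral and intermediate minus ventral pieces; filled points have an adjusted p under 0.05 and the orange bar is the list median. Oligodendrocyte and astrocyte markers lie to the left of 0 in both panels and most pan-neuronal markers to the right, with neurofilament genes as exceptions.

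The genes whose values followed each member most closely over the 9 arrays were taken from 6709 candidate genes, with Pearson's r as the measure. For L1cam they were Vat1l, Parp6, Ly6h, Dnajb6 and Hs6st2, with r from 0.998 to 0.9987. For Chl1 they were Vstm2l, Fam241b, Prr36, Wdr6 and Pgrmc1, with r from 0.9972 to 0.9983. Hs6st2, a heparan sulfate sulfotransferase, had a larger dorsal minus ventral difference, 2.08, than L1cam, and Vat1l, Parp6, Ly6h and Dnajb6 had smaller ones. Prr36, Fam241b, Vstm2l and Pgrmc1 had larger differences than Chl1, at 2.51, 2.04, 1.64 and 1.29, and Wdr6 a smaller one, at 1.11. For Nfasc they were Tspan2, a tetraspanin, Cnksr3, Llgl1, Inppl1 and Sirt2, a deacetylase, with r from 0.9964 to 0.9973 and dorsal minus ventral differences from -1.68 to -1.19.

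For Nrcam the closest were Pde8b, a phosphodiesterase, Insyn2b, D10Wsu102e, Slc35f3 and Cacng2, an auxiliary subunit of AMPA receptors, with r from 0.9685 to 0.981. All 5 were highest in intermediate pieces and had larger intermediate minus dorsal differences, 0.56 to 1.09, than Nrcam. An r above 0.95 was common for the genes with a steep gradient: 720 candidates had it with L1cam, 653 with Chl1 and 619 with Nfasc, against 21 with Nrcam. With 3 regions behind the 9 arrays, such values mostly describe the order and spacing of the region means.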

How the data were processed

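Per the labels' protocols, 500 ng of total RNA went into an Affymetrix kit that makes biotin-labelled cRNA from the 3' end, and 1 array was hybridised per piece. The authors deposited 1 value per probe set and array, read here as log2; how they summarised, normalised and floored the signals, and the log base, are not given in the sources used here. Probe sets were named by GEO's platform annotation: 34945 had 1 symbol, 932 several and 9160 none, and 34741 matched RefSeq by Entrez ID with 0 symbols changed. Probe sets more than 0.01 above the floor on at least 3 of 9 arrays were kept.

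limma 3.58.1 in R 4.3.3 (lmFit, eBayes) was fitted to all 9 arrays with region and animal as terms, and p-values were two-sided and adjusted over 28726 probe sets within a comparison. The animal number comes from the sample titles. Deviations of arrays of the same animal correlated at -0.0548 to 0.189 over 9 pairs, and those of different animals at -0.172 to 0.145 over 18. These are deviations from the mean of each region, which ties the 2 ranges to each other. They are therefore no separate test of the pairing. Differences between members or probe sets are 95% intervals from the same model on within-array differences, without p-values. The 4 members and all gene lists were chosen with earlier results of these data known. Named were all member probe sets, per partner list and comparison the up to 4 called genes of largest difference, all ankyrins, markers from among the 2 brightest and the 2 most different per comparison, and the 5 best correlated genes per member. Sptbn1, Rbfox3, Nefl, Cntnap1 and the other markers given as at the floor were named after their values were seen. The figures were drawn with matplotlib 3.10.9. The fit was tested on simulated data. Alternatives changed the block, arrays, scaling, filter, variance prior and choice of probe set.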

Additional observations from a re-analysis of the deposited data

How the results depend on the processing

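Each result was recomputed under 25 alternatives (23 for counts over all probe sets). L1cam, Chl1 and Nfasc kept their direction and their call in both comparisons with ventral pieces under all 25: dorsal minus ventral differences ran from 0.88 to 1.66, 0.42 to 1.23 and -1.68 to -1.36, the smallest L1cam and Chl1 values coming from the mean over probe sets. For these genes the most variable probe set was also the brightest, so that this alternative only repeated the main fit. No alternative read Chl1 from 1417795_at alone, whose dorsal minus ventral difference was 0.05 (limma adjusted p = 0.350). The replicate block by animal changed 2 calls: without it, L1cam intermediate minus dorsal (-0.27, adjusted p = 0.0265) and Nrcam dorsal minus ventral (-0.09, adjusted p = 0.0326) passed; no other call of a member changed with this pairing. L1cam intermediate minus dorsal also passed after quantile normalization (-0.29, adjusted p = 0.0229) and, at -0.27, with a mean of at least 6 (0.0247), 1 probe set per gene (0.0434) or 9 distinct values (0.0227). Centring arrays on their median made Nrcam dorsal minus ventral -0.15 (adjusted p = 0.0124).

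The most variable probe set reversed Nrcam dorsal minus ventral to 0.51 (adjusted p = 0.00505), the mean of the probe sets to 0.23 (0.0033), and both called Nrcam intermediate minus ventral (0.71 and 0.38; 0.00221 and 9.38e-04). With the most variable probe set Nrcam intermediate minus dorsal was 0.19 (0.151) and 1 member was called there. Leaving out arrays or animals moved Nrcam intermediate minus dorsal between 0.13 and 0.18 (9 of 12 losses), Chl1 between -0.39 and -0.31 (2 losses, animals 1 and 3), Nrcam dorsal minus ventral between -0.13 and -0.05 (2 gains). Members called then numbered 0 to 2 for intermediate minus dorsal, 3 for intermediate minus ventral and 3 to 4 for dorsal minus ventral.

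Over all probe sets, calls were 7566 for intermediate minus dorsal (3574 higher, 3992 lower), 11981 for intermediate minus ventral and 13915 for dorsal minus ventral. Centring gave 4945 higher and 3311 lower for the first. Leaving out arrays gave 2321 to 6280, 7148 to 11620 and 9504 to 13301 calls, 1 probe set per gene 4337, 6842 and 7498 (fewer features tested), and the 2 regions alone 3263 for intermediate minus dorsal. With 3 arrays a region and 4 residual degrees of freedom, differences as small as those of Nrcam were at the edge of what could be called.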
